A study of Mus musculus with 15 samples.

Results

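Voltage-gated calcium channels let calcium into a neuron when its membrane depolarises, and at the central terminals of sensory neurons that calcium releases transmitter. The pore is an alpha1 protein, and it works together with an alpha2delta protein, which sits on the outer face of the membrane and helps to bring channels to the terminal, and a beta protein, which binds the pore on the inner face and sets its gating and its amount at the surface. The alpha2delta proteins of Cacna2d1 and Cacna2d2 bind gabapentin and pregabalin, drugs given for neuropathic pain, and Cacna2d1 is known from work in rodents to rise in dorsal root ganglia after nerve injury. The genes described here are the 7 of the count table whose identifiers map to the symbols Cacna2d1, Cacna2d2, Cacna2d3, Cacnb1, Cacnb2, Cacnb3 and Cacnb4, out of 39179 gene identifiers in all. All 7 had enough counts to be tested.

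Messenger RNA was sequenced from lumbar 4 to 6 dorsal root ganglia of 15 mice of 3 to 6 months, on a mixed background that is mostly C57bl6, with 1 library per mouse. Knockout mice were Wnt1-Cre; mirflox/flox, in which Cre driven by Wnt1, a gene of the neural crest lineage, deletes the floxed miR-183 cluster, which encodes miR-183, miR-96 and miR-182, in neurons and glia that descend from that lineage. Control mice carried Wnt1-Cre alone or were wild type (wt). In spared nerve injury (SNI), the common peroneal and tibial branches of the sciatic nerve were ligated and cut and the sural branch was left. The groups were knockout SNI (3 mice, replicates 13, 19 and 21), control SNI (3 mice, replicates 15, 18 and 23), knockout naive (4 mice, replicates 4, 5, 8 and 9) and control naive (5 mice, replicates 1, 2, 3, 6 and 7). Naive replicate 7 and SNI replicates 18 and 23 were the 3 wt animals among the 8 controls. The time between injury and tissue collection is not given in the sources used here.

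The libraries held 5.25 to 10.8 M counts, and the genes of the sensory neuron list summed to 9068 to 11342 CPM, the level unit used throughout (the count of a gene as a rate of the library's counts, scaled by TMM). The 3 microRNA genes had 0 to 2 counts each over all 15 libraries, so this library type does not check the deletion. Slc25a1, the gene with the smallest p for the knockout in both conditions, averaged 305 ± 10.8 CPM in knockout SNI, against 106 ± 12.8 CPM in control SNI (SD, n = 3 each). Atf3, an injury-induced transcription factor, averaged 224 and 150.5 CPM in knockout and control SNI ganglia, against 5.6 and 7.85 CPM in knockout and control naive ganglia. Control SNI replicate 23 stood apart, with 5.25 M counts and 7.43% mitochondrial counts, against 2.26 to 3.6% in the other 14 libraries. On the first principal component it lay at -30.4, beyond the naive libraries (-21.1 to -8.62) and away from the other SNI libraries (14.0 to 45.4). Animal numbers ran from 948 to 976 in SNI mice and from 1041 to 1082 in naive mice, so the order of the animals and the injury cannot be told apart. Among the SNI mice they ran from 948 to 956 in knockout and from 974 to 976 in control. After injury, order and genotype therefore cannot be told apart. In naive mice the numbers overlapped, at 1054 to 1082 in knockout and 1041 to 1080 in control. In bulk tissue, fewer cells of a type and less RNA per cell cannot be told apart either.

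The deleted microRNAs pair with messenger RNAs mainly through their seed, bases 2 to 8. The mature sequences (RefSeq, GRCm38.p6, chromosome 6, minus strand) are shown with the seed in capitals, because the sites in the subunit genes below are read against them. All have the stretch UGGCA in the seed. The seeds of miR-96 and miR-182 differ only in their last base and share the site TGCCAAA.
miR-183-5p: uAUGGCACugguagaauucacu
miR-96-5p: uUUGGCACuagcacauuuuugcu
miR-182-5p: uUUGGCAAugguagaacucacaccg

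An 8mer site is the complement of the seed followed by an A, here GTGCCATA for miR-183, GTGCCAAA for miR-96 and TTGCCAAA for miR-182. A 7mer-m8 site lacks the A, and a 7mer-A1 site lacks the base that pairs with seed base 8. Sites were searched on the transcribed strand of the longest annotated 3′ UTR (GENCODE M21), which each 26-base window below spans with the site in capitals. The windows are every 8mer of the 7 genes and, for the 3 genes called in a comparison, every 7mer-m8, given by their place on GRCm38. Each lies in the last exon of its transcript, in the 3′ UTR.
Cacna2d2 miR-96 8mer, chr9:107528215-107528240, plus strand: aatgtcaaaccGTGCCAAAtgctggg
Cacna2d2 miR-183 7mer-m8, chr9:107527616-107527641, plus strand: ccccaaagtaagGTGCCATggtgttt
Cacnb1 miR-96 7mer-m8, chr11:98001769-98001794, minus strand: agagagccgattGTGCCAAcgaggac
Cacnb1 miR-96 7mer-m8, chr11:98001694-98001719, minus strand: tcgccacctcctGTGCCAAtgttgcc
Cacna2d1 miR-182 7mer-m8, chr5:16371543-16371568, plus strand: aatgaacttggcTTGCCAAgggtctt
Cacnb4 miR-96 8mer, chr2:52433854-52433879, minus strand: atatattgataGTGCCAAAaaaaatc
Cacnb4 miR-96 8mer, chr2:52430674-52430699, minus strand: gaactacctctGTGCCAAAtgtagcc
Cacnb4 miR-182 8mer, chr2:52429422-52429447, minus strand: aaagcattttaTTGCCAAAataaatc

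Of 14451 tested genes with an annotated 3′ UTR, 9.33% held an 8mer of at least 1 of the 3 microRNAs, 3.00% one of miR-96, and 26.8% an 8mer or 7mer-m8 of any. Cacna2d2 and Cacnb4 were the members with an 8mer. The Cacna2d2 8mer stood at base 762 of a 3′ UTR of 1879 bases, and all 5 annotated 3′ UTRs of the gene held it. Cacna2d2 also had a 7mer-A1 site at base 272 for miR-96 and miR-182 and one at base 534 for miR-183. Cacnb1 had no 8mer. Its pair of miR-96 7mer-m8 sites lay at bases 1119 and 1194 of the longest 3′ UTR, 1393 bases, and the other 3 annotated 3′ UTRs, of 96 to 274 bases, held none. Cacnb4 had 3 8mers in a 3′ UTR of 6169 bases, the longest of the 7, with miR-182 7mer-m8 sites at bases 2619 and 5156 and miR-183 7mer-A1 sites at bases 54 and 4539. Cacna2d1 (3837 bases) had 1 7mer-m8 site, for miR-182, and 3 7mer-A1 sites that serve miR-96 and miR-182 alike. Cacnb2 had 1 such 7mer-A1 site, and Cacna2d3 (322 bases) and Cacnb3 (958 bases) had none of these letters. A match is a description of sequence and does not show that a site is used.

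Cacna2d2 was the member that differed most between the genotypes: it was about 2 times as high in knockout as in control ganglia, in naive and in injured mice alike. Cacnb1 was also higher in knockout ganglia in both conditions. Cacna2d1 rose after injury in both genotypes. No call was made for Cacna2d3, Cacnb2, Cacnb3 or Cacnb4 in any comparison. All tests are edgeR's quasi-likelihood test fitted to all 16976 tested genes in the 15 libraries, with Benjamini-Hochberg adjustment over those genes, and a call is an adjusted p under 0.05.

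**Figure D1:**
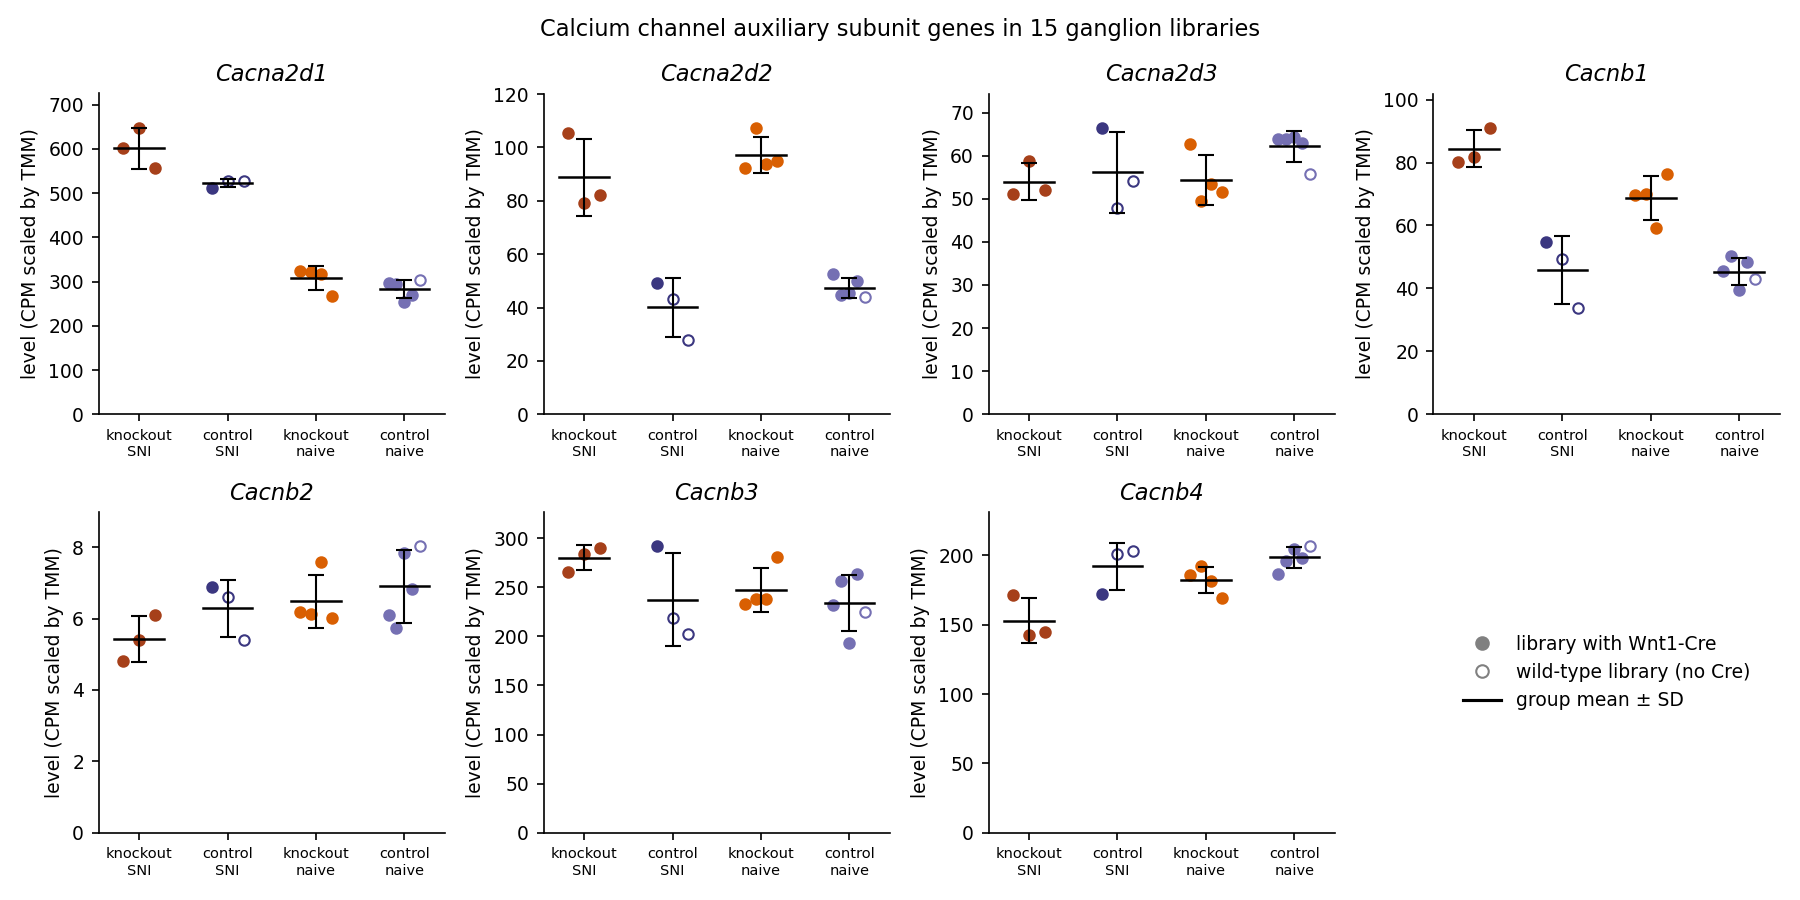
Level of each gene in each library (vertical axes, CPM scaled by TMM, from 0) by group (horizontal axes); filled points are libraries with Wnt1-Cre, open points wild-type libraries, and lines the group mean ± SD (n = 3, 3, 4 and 5). Cacna2d2 and Cacnb1 separate the genotypes, with every knockout library above every control library of the same condition, and Cacna2d1 separates SNI (513 to 648 CPM) from naive (254 to 324 CPM).

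Cacna2d2 (ENSMUSG00000010066, GRCm38 chr9:107399612-107529343, plus strand) encodes alpha2delta-2, the subunit whose loss causes the ataxia of the ducky mouse. In naive mice it stood at 92.4, 107, 94.0 and 94.97 CPM in knockout ganglia, and at 52.4, 44.7, 45.6, 50.0 and 43.9 CPM in control ganglia. The lowest knockout library was well above the highest control library. On the log2 scale the fold change was 1.04 (SE 0.127, 95% interval 0.77 to 1.31; adjusted p = 2.20e-04, edgeR), 2.05-fold, and the gene ranked 25 by p among all tested genes.

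After injury Cacna2d2 had 105, 79.1 and 82.0 CPM in knockout ganglia, against 49.1, 43.2 and 27.8 CPM in control ganglia. The groups again did not overlap, and the lowest control value was that of replicate 23. The log2 fold change was 1.13 (SE 0.159, 95% interval 0.79 to 1.47; adjusted p = 0.00185, edgeR), and 0.95 without control SNI replicate 23. Fitted to the 6 injured libraries alone, the value was 1.14 with an adjusted p of 0.391 (edgeR), a fit in which no gene was called. Without replicate 23 as well, an alternative chosen after seeing the data, it was 0.95 with an adjusted p of 0.0816. The sensory neuron list summed to 10752 to 11342 CPM in knockout SNI and to 9109 to 10192 CPM in control SNI, ranges that do not overlap. Of its 10 genes, 7 had a log2 fold change above 0 and none was called, where 1.04% of all tested genes were. Tubb3 alone averaged 4102 CPM in knockout SNI and 3233 CPM in control SNI. Lower in knockout SNI were Isl1 (67.7 against 84.7 CPM), Pou4f1 (113.5 against 122.3 CPM) and Calca (844 ± 66.5 against 1308 ± 707 CPM). The part of the difference between these sums in the result was not tested. In naive mice the same sums overlapped, at 9828 to 10311 CPM in knockout and 9068 to 10535 CPM in control ganglia.

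Injury itself moved Cacna2d2 by less than the test could call. The log2 fold change of SNI against naive was -0.13 in knockout (adjusted p = 0.578) and -0.22 in control (adjusted p = 0.465, edgeR). The difference between the injury effects of knockout and control was 0.09, with a 95% interval of -0.34 to 0.52 (adjusted p = 0.848, edgeR). The 3 wild-type control libraries had 43.9, 43.2 and 27.8 CPM and the 5 Wnt1-Cre control libraries 44.7 to 52.4 CPM, all under the lowest knockout library at 79.1 CPM. With controls limited to Wnt1-Cre libraries, the log2 fold change was 1.01 in naive mice (adjusted p = 2.20e-06) and 0.85 after injury (adjusted p = 0.0148, edgeR). After injury that comparison has a single control library, assumed to vary like the libraries of the other groups, so its p carries no spread of that group.

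Cacnb1 (ENSMUSG00000020882, chr11:98001508-98023034, minus strand) encodes beta1, which has a splice form for the skeletal muscle channel and another for neurons. In naive mice it stood at 69.5, 70.1, 59.3 and 76.3 CPM in knockout ganglia, and at 45.5, 50.4, 39.5, 48.5 and 42.9 CPM in control ganglia. The groups did not overlap, and knockout replicate 8 came nearest to the controls. The fitted log2 fold change was 0.60 (SE 0.118, 95% interval 0.35 to 0.85; adjusted p = 0.0122, edgeR), 1.52-fold. The call was lost without knockout naive replicate 9, where the value was 0.55 and the adjusted p 0.062.

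After injury Cacnb1 had 80.3, 81.9 and 91.0 CPM in knockout ganglia, against 54.7, 49.2 and 33.6 CPM in control ganglia. Every knockout library was above every control library, and replicate 23 was again the lowest. Knockout against control gave a log2 fold change of 0.87 (SE 0.146, 95% interval 0.56 to 1.17; adjusted p = 0.00674, edgeR). The call ended in the fit to the 6 injured libraries alone (0.87, adjusted p = 0.422), in that fit without replicate 23 (0.71, adjusted p = 0.0833) and with Wnt1-Cre controls only (0.62, adjusted p = 0.0893), which leaves 1 control SNI library, again assumed to vary like the other groups.

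Injury gave Cacnb1 a log2 fold change of 0.30 in knockout (95% interval 0.01 to 0.58; adjusted p = 0.164) and of 0.03 in control ganglia (95% interval -0.25 to 0.31; adjusted p = 0.941, edgeR). The knockout SNI libraries (80.3 to 91.0 CPM) lay above the knockout naive libraries (59.3 to 76.3 CPM), as did the values of 34.2% of all tested genes, in 1 direction or the other. The difference between the injury effects was 0.27 (95% interval -0.13 to 0.66; adjusted p = 0.502, edgeR), so an effect of injury on Cacnb1 that depends on genotype was not shown.

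Because beta1 is also the beta subunit of skeletal muscle, the muscle genes were set beside it. The 10 skeletal muscle genes summed to 174 to 1319 CPM in knockout SNI, 10.2 to 372 CPM in control SNI, 23.3 to 231 CPM in knockout naive and 7.64 to 113 CPM in control naive libraries. None of the 10 passed the test between genotypes, where 1.04% of all tested genes did after injury and 1.89% in naive mice. Their median log2 fold change was nevertheless 2.39 after injury and 1.52 in naive mice. Knockout naive replicates 5 and 9 had 23.3 and 33.1 CPM of muscle genes and 70.1 and 76.3 CPM of Cacnb1. Knockout naive replicates 4 and 8, with 152 and 231 CPM of muscle genes, had 69.5 and 59.3 CPM of Cacnb1. Control naive replicates 1 and 7, with 113 and 60.8 CPM of muscle genes, had 45.5 and 42.9 CPM of Cacnb1. Control naive replicates 2, 3 and 6, with 14.5, 19.6 and 7.64 CPM of muscle genes, had 50.4, 39.5 and 48.5 CPM of Cacnb1. After injury, knockout replicate 19 with 174 CPM of muscle genes had 81.9 CPM of Cacnb1, and control replicate 18 with 372 CPM of muscle genes had 49.2 CPM. Knockout replicates 13 and 21, with 791 and 1319 CPM of muscle genes, had 80.3 and 91.0 CPM, and control replicates 15 and 23, with 10.2 and 14.2 CPM, had 54.7 and 33.6 CPM. The part of muscle tissue in the Cacnb1 difference was not tested.

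**Figure D2:**
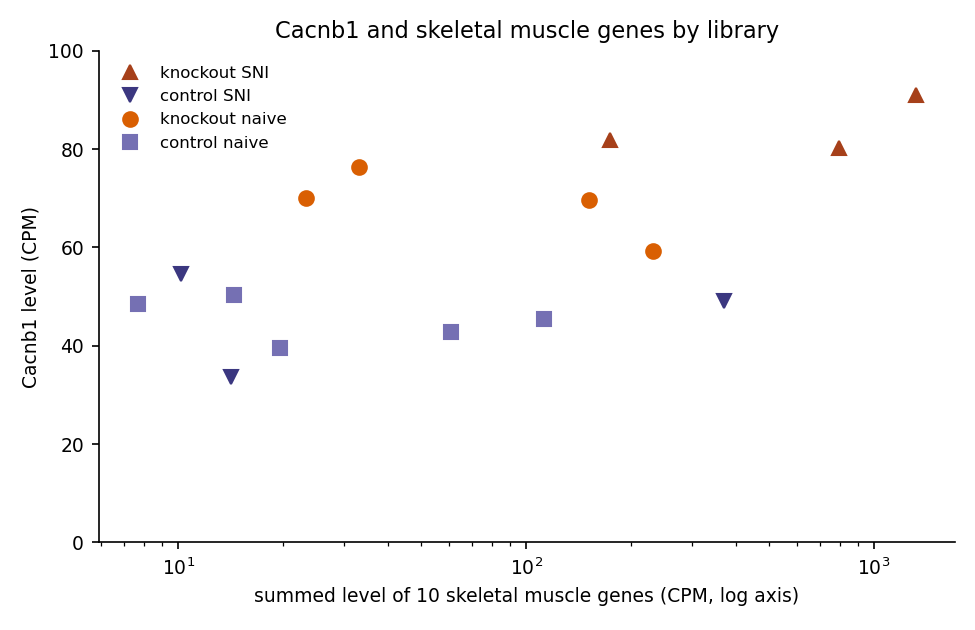
Level of Cacnb1 (vertical axis, CPM, from 0) against the summed level of 10 skeletal muscle genes (horizontal axis, CPM, log scale) in each of the 15 libraries, by group. The knockout libraries lie between 59.3 and 91.0 CPM of Cacnb1 and the control libraries between 33.6 and 54.7 CPM; their muscle sums, 23.3 to 1319 CPM in knockout and 7.64 to 372 CPM in control, overlap only in part.

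Cacna2d1 (ENSMUSG00000040118, chr5:15934691-16374511, plus strand) encodes alpha2delta-1, the main gabapentinoid target and the alpha2delta gene with the most counts here. In knockout mice it stood at 602, 648 and 556 CPM after SNI, and at 324, 321, 318 and 267 CPM in naive ganglia. In control mice it stood at 513, 528 and 527 CPM after SNI, and at 298, 295, 254, 269 and 303 CPM in naive ganglia. All 6 SNI libraries were far above all 9 naive libraries, replicate 23 included. Injury gave a log2 fold change of 0.97 in knockout (SE 0.0913, 95% interval 0.77 to 1.16; adjusted p = 3.86e-06) and 0.88 in control (SE 0.0865, 95% interval 0.70 to 1.06; adjusted p = 9.66e-06, edgeR). The call held in every alternative fit run and without each library in turn, with values of 0.86 to 1.02 over the 2 comparisons.

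The difference between these injury effects was 0.09 (95% interval -0.18 to 0.36; adjusted p = 0.764, edgeR). An injury effect that is larger in knockout by more than 0.36 log2 units lies outside this interval. Between genotypes, Cacna2d1 had a log2 fold change of 0.20 after injury (95% interval -0.00 to 0.41; adjusted p = 0.228) and 0.12 in naive mice (95% interval -0.05 to 0.29; adjusted p = 0.67, edgeR). The injured groups did not overlap, at 556 to 648 CPM in knockout and 513 to 528 CPM in control ganglia, which was so for 16.2% of all tested genes. The macrophage list moved with injury. It summed to 174 to 282 CPM in SNI libraries, against 103 to 205 CPM in naive libraries. Of its 8 genes, 4 were called higher in knockout and 6 in control, where 7.17% and 2.12% of all tested genes were. The part of the macrophage list in the rise of Cacna2d1 was not tested. Control SNI replicates 15 and 23, with muscle sums of 10.2 and 14.2 CPM, had 513 and 527 CPM of Cacna2d1, and replicate 18, with a muscle sum of 372 CPM, had 528 CPM. The part of muscle tissue in the rise was not tested.

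Cacna2d3 (ENSMUSG00000021991, chr14:28904943-29721864, minus strand) encodes alpha2delta-3, which lacks high-affinity gabapentinoid binding and whose loss in flies and mice alters responses to noxious heat. It averaged 54.0 ± 4.23 CPM in knockout SNI (n = 3), 56.2 ± 9.43 CPM in control SNI (n = 3), 54.3 ± 5.85 CPM in knockout naive (n = 4) and 62.1 ± 3.59 CPM in control naive ganglia (SD, n = 5). All 4 groups overlapped. The log2 fold change between genotypes was -0.06 after injury (adjusted p = 0.804) and -0.19 in naive mice (95% interval -0.40 to 0.02; adjusted p = 0.488, edgeR), so the rise of Cacna2d2 in knockout ganglia had no counterpart of that size in this gene.

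Cacnb4 (ENSMUSG00000017412, chr2:52428320-52676831, minus strand) encodes beta4, the subunit mutated in the lethargic mouse. After injury it had 171.7, 143 and 144 CPM in knockout ganglia, against 172.5, 201 and 203 CPM in control ganglia. In naive mice it had 186, 192, 182 and 169 CPM in knockout ganglia, against 187, 196, 205, 198 and 207 CPM in control ganglia. The injured groups were set apart by less than 1 CPM, and the naive groups overlapped. The log2 fold change between genotypes was -0.33 after injury (95% interval -0.53 to -0.13; adjusted p = 0.105) and -0.12 in naive mice (95% interval -0.29 to 0.04; adjusted p = 0.633, edgeR). Injury gave -0.25 in knockout (adjusted p = 0.0833) and -0.05 in control (adjusted p = 0.832, edgeR). DESeq2 called the knockout difference after injury (adjusted p = 0.0194) and the injury difference in knockout (adjusted p = 0.0481). The edgeR values between genotypes were below 0 in both conditions and were not called. The part of the seed sites in them was not tested.

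Cacnb3 (ENSMUSG00000003352, chr15:98630840-98644529, plus strand) encodes beta3, a beta subunit of neuronal channels. It averaged 279.8 ± 12.7 CPM in knockout SNI, 237 ± 47.6 CPM in control SNI, 247 ± 22.3 CPM in knockout naive and 234 ± 28.1 CPM in control naive ganglia. The spread was widest in control SNI, where replicate 15 had 292 CPM and replicates 18 and 23 had 218 and 202 CPM. The log2 fold change between genotypes was 0.24 after injury (95% interval -0.05 to 0.52; adjusted p = 0.304) and 0.08 in naive mice (adjusted p = 0.89, edgeR). Without control SNI replicate 15 the first value was 0.41 and was called (adjusted p = 0.028), whereas with Wnt1-Cre controls only it was -0.063.

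Cacnb2 (ENSMUSG00000057914, chr2:14603088-14987908, plus strand) encodes beta2, the main beta subunit of the heart. It had 25 to 87 counts per library, the fewest of the 7 genes, and averaged 5.43 ± 0.65 CPM in knockout SNI, 6.29 ± 0.79 CPM in control SNI, 6.48 ± 0.75 CPM in knockout naive and 6.90 ± 1.02 CPM in control naive ganglia. No comparison passed, with log2 fold changes of -0.23 (knockout against control after injury, adjusted p = 0.462) and -0.09 (in naive mice, adjusted p = 0.904, edgeR). The 95% interval after injury, -0.61 to 0.15, was wider than that of Cacnb4.

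**Figure D3:**
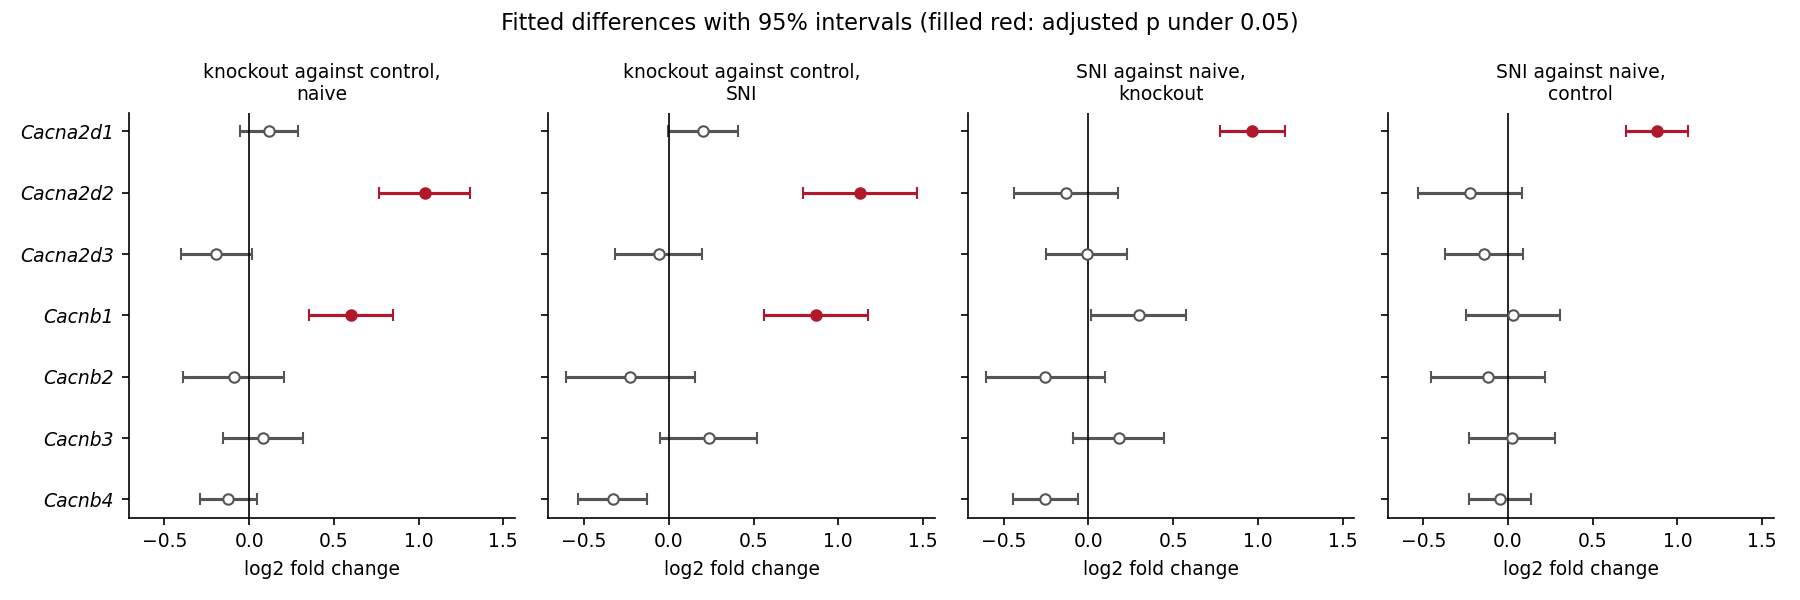
Fitted log2 fold change (horizontal axis) of each gene (vertical axis) in 4 comparisons, with bars for the 95% interval; filled red points have an adjusted p under 0.05 (edgeR). Cacna2d2 (1.04 and 1.13) and Cacnb1 (0.60 and 0.87) are called between genotypes, and Cacna2d1 (0.97 and 0.88) between SNI and naive.

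Counted together, 2 of the 7 genes were called higher in knockout naive ganglia, where 1.89% of the 16976 tested genes were called in either direction and 0.889% higher. After injury the same 2 genes, Cacna2d2 and Cacnb1, were called higher in knockout, against 1.04% of all tested genes called, 0.666% higher and 0.377% lower. For SNI against naive, 1 of 7 was called in knockout, where 10.1% of tested genes were called (7.17% higher and 2.94% lower). In control 1 of 7 was called, where 2.48% of tested genes were called (2.12% higher and 0.359% lower). The pairs of groups did not overlap for 4 of the 7 genes between genotypes after injury (16.2% of all tested genes) and for 2 in naive mice (9.63%). Between SNI and naive they did not overlap for 2 genes in knockout (34.2%) and 1 in control (8.21%). The median log2 fold change of the 7 genes was 0.20 in knockout against control after injury and 0.08 in naive mice, beside -0.01 and 0.00 for all tested genes. The genotype comparisons share libraries with the injury comparisons, so their values are given side by side without a measure of agreement. None of the 7 genes passed for the difference between the injury effects, and edgeR called none of the 16976 genes for it, with 2281 at an unadjusted p under 0.05, 0 by limma-voom and 13 by DESeq2.

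Levels of different genes were compared per kilobase of their merged exons. Cacnb3 had the highest level per length in all 4 groups, 69.8 CPM per kb in knockout SNI, 59.2 in control SNI, 61.7 in knockout naive and 58.3 in control naive ganglia. Cacna2d1 came second, at 48.5, 42.1, 24.8 and 22.8 CPM per kb in the same groups. In control naive ganglia Cacna2d1 and Cacnb4 (22.2 CPM per kb) did not differ beyond their spread. In injured ganglia Cacna2d1 stood clear of Cacnb4, at 17.1 in knockout and 21.4 CPM per kb in control. Cacnb2 was lowest in every group, at 0.41 to 0.52 CPM per kb.

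The middle of the order differed between the genotypes. In knockout naive ganglia Cacnb1 (15.2 CPM per kb) and Cacna2d2 (12.2) overlapped, and both were above Cacna2d3 (6.23). In control naive ganglia Cacnb1 (10.01) was above Cacna2d3 (7.13) and Cacna2d2 (5.96), and the last 2 overlapped. In knockout SNI ganglia Cacnb1 (18.6) and Cacnb4 (17.1) overlapped, followed by Cacna2d2 (11.2) and Cacna2d3 (6.19). In control SNI ganglia Cacnb1 (10.1), Cacna2d3 (6.44) and Cacna2d2 (5.04) each overlapped the next. With the length of the longest transcript in place of merged exons, Cacna2d3 came before Cacnb1 in both control groups.

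Within the alpha2delta family, Cacna2d2 made up 17.0% of the summed level per length in knockout SNI and 9.36% in control SNI, and 28.3% in knockout naive and 16.6% in control naive ganglia. The shares in single libraries were 14.4 to 19.6%, 6.71 to 11.2%, 25.9 to 30.3% and 15.2 to 17.9% in that order of groups. They did not overlap between genotypes of the same condition, whereas knockout SNI and control naive overlapped. Cacna2d1 made up 73.6, 78.6, 57.2 and 63.5% in the same groups, so its share was higher after injury in both genotypes. The ratio of Cacna2d2 to Cacna2d1 per length was 0.23 ± 0.04 in knockout SNI, 0.12 ± 0.03 in control SNI, 0.50 ± 0.05 in knockout naive and 0.26 ± 0.03 in control naive ganglia. Injured knockout and uninjured control ganglia thus overlapped in this ratio (0.19 to 0.27 against 0.23 to 0.29), at different levels of both genes.

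The summed level of the alpha2delta genes was 65.8 ± 4.19 CPM per kb in knockout SNI, 53.6 ± 1.47 in control SNI, 43.2 ± 2.65 in knockout naive and 35.9 ± 1.63 in control naive ganglia. The 4 ranges did not overlap. Within the beta family, Cacnb1 made up 17.1 to 18.4% in knockout SNI, 9.17 to 12.3% in control SNI, 14.0 to 16.2% in knockout naive and 10.6 to 11.4% in control naive libraries, again without overlap between genotypes. The summed beta level was 106 ± 2.83, 91.2 ± 12.1, 97.7 ± 5.82 and 91.0 ± 7.55 CPM per kb in these groups. The beta sums of the genotypes overlapped in both conditions. These shares, ratios and sums are descriptions and were not tested. They rest on merged exon lengths and would differ with another length. For Cacna2d3 that length is 8.72 kb, against 3.695 kb for its longest transcript.

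**Figure D4:**
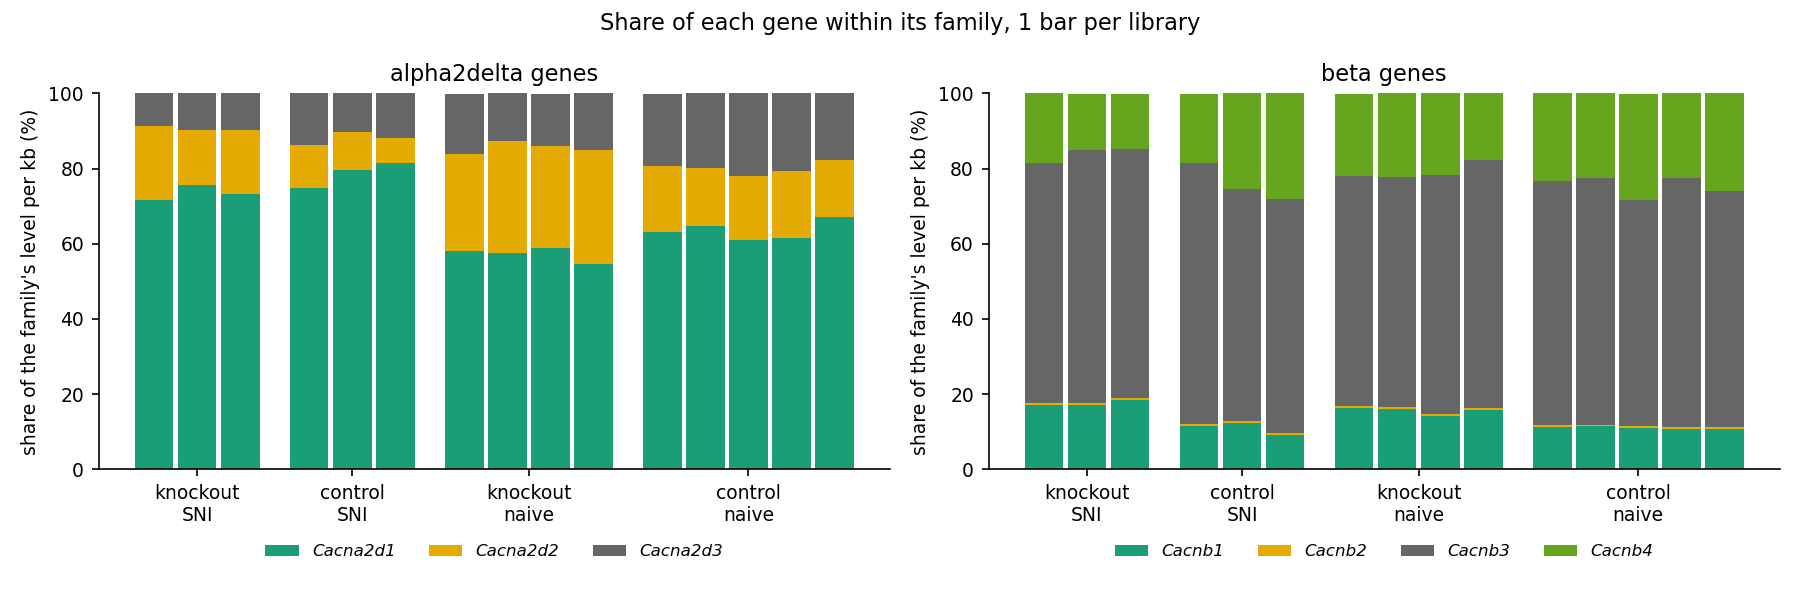
Share of each gene in the summed level per kilobase of its family (vertical axis, %), 1 stacked bar per library, for the alpha2delta genes (left) and the beta genes (right). The Cacna2d2 share is larger in knockout than in control bars of the same condition, and the Cacna2d1 share is larger in SNI (71.7 to 81.4%) than in naive bars (54.7 to 67.2%).

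Of 10 alpha1 genes, the pores that the auxiliary subunits serve, 9 were tested, and none was called between genotypes in either condition. Of all tested genes, 1.04% were called after injury and 1.89% in naive mice. Cacna1b, the pore of N-type channels and the target of ziconotide, averaged 248 ± 38.8 CPM in knockout SNI, 199.985 ± 41.2 CPM in control SNI, 193 ± 20.98 CPM in knockout naive and 186 ± 22.3 CPM in control naive ganglia. Its log2 fold change between genotypes was 0.31 after injury (adjusted p = 0.245) and 0.05 in naive mice (adjusted p = 0.951, edgeR). Cacna1e, the pore of R-type channels, had 0.40 (adjusted p = 0.207) and 0.28 (adjusted p = 0.505, edgeR). The median of the 9 genes was 0.23 after injury and -0.13 in naive mice, beside 0.20 and 0.08 for the 7 auxiliary genes.

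For SNI against naive, the 1 pore gene called was Cacna1s, the pore of the skeletal muscle channel, in knockout ganglia. There 10.1% of all tested genes were called. Cacna1s averaged 5.70 ± 3.32 CPM in knockout SNI and 1.48 ± 0.93 CPM in knockout naive ganglia (log2 fold change 1.91, adjusted p = 0.0478, edgeR). The call was lost in 9 of 15 fits without a library (highest adjusted p 0.207, edgeR, without knockout SNI replicate 21). Cacna1s was also not called by limma-voom or without the filter on low counts. It is itself one of the 10 muscle genes, whose sum was 174 to 1319 CPM in knockout SNI against 23.3 to 231 CPM in knockout naive libraries, and the part of muscle tissue in the call was not tested. Of the other auxiliary genes (Cacna2d4 and the gamma subunits), 5 of 9 were tested and none was called in any of the 5 comparisons. The share of all tested genes called in these comparisons was 0 to 10.1%.

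Among 23 genes of proteins reported to bind or limit the channel, 22 were tested. Between genotypes none was called, after injury or in naive mice, where 1.04% and 1.89% of all tested genes were called. The nearest were Camk2b, a subunit of the calcium and calmodulin-dependent kinase, at 0.52 after injury (adjusted p = 0.0754), and Stac, an adaptor of L-type channels, at 0.29 in naive mice (adjusted p = 0.0834, edgeR). After injury 5 of the 22 were called in knockout, all higher, where 10.1% of all tested genes were called and 7.17% higher. In control 3 were called, 2 higher and 1 lower, where 2.48% of all tested genes were called.

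Thbs2 and Stac rose after injury in both genotypes. Thbs2 encodes thrombospondin-2, a matrix protein of a family reported to bind alpha2delta-1, and it averaged 25.5 ± 7.15 CPM in knockout SNI and 12.4 ± 1.54 CPM in knockout naive ganglia (log2 fold change 1.04, adjusted p = 0.00198). In control mice it averaged 25.3 ± 6.52 CPM after SNI and 13.1 ± 1.34 CPM in naive ganglia (0.96, adjusted p = 0.0047, edgeR), a call lost without control SNI replicate 18 (adjusted p = 0.0564) and with Wnt1-Cre controls only (adjusted p = 0.0873). Stac had a log2 fold change of 0.35 in knockout (adjusted p = 0.0241) and 0.45 in control (adjusted p = 0.00852, edgeR). The knockout call was lost without knockout naive replicate 4 or 8 or knockout SNI replicate 19 (highest adjusted p 0.149), and the control call in the fit to control libraries alone (adjusted p = 0.0662).

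In knockout only, by count of calls and not by a test of the difference, Crmp1, a collapsin response mediator, rose by 0.61 (adjusted p = 0.00534). Lrp1, an endocytic receptor, rose by 0.55 (adjusted p = 0.0205), and Camk2d, another kinase subunit, by 0.25 (adjusted p = 0.0462, edgeR). Camk2d averaged 269 CPM after SNI and 226 CPM in naive knockout ganglia, and nearly the same, 262 and 224 CPM, in control ganglia. Crmp1 averaged 140 CPM after SNI and 114 CPM in naive control ganglia, and Lrp1 178.8 and 178.7 CPM. Lrp1 lost its call without knockout naive replicate 8 or knockout SNI replicates 19 or 21 (highest adjusted p 0.116), and Camk2d in 12 of 15 fits without a library (highest adjusted p 0.192) and without the filter on low counts (adjusted p = 0.132). Comp, a cartilage matrix protein of the thrombospondin family, fell by 1.86 on the log2 scale in control ganglia, to 5.53 ± 1.99 CPM after SNI, against 21.2 ± 9.54 CPM in naive ganglia (adjusted p = 0.0466, edgeR). That call was also lost in 12 of 15 fits without a library (highest adjusted p 0.133). It was lost as well without the filter, by limma-voom, with only the groups compared, in that fit without control SNI replicate 23 and with Wnt1-Cre controls only (highest adjusted p 0.36).

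Of the 14 presynaptic partners, all tested, none was called between genotypes, where 1.04% (SNI) and 1.89% (naive) of all tested genes were called. After injury 3 were called higher in knockout, where 7.17% of all tested genes were called higher. Among them were Erc2, an active zone scaffold (0.50, adjusted p = 0.00323), and Bsn, the scaffold bassoon (0.64, adjusted p = 0.0239, edgeR). Bsn lost the call in 4 of 15 fits without a library, with the highest adjusted p of 0.1003 without knockout SNI replicate 19. In control ganglia none of the 14 was called, where 2.48% of all tested genes were. The difference between the injury effects was not shown for any of them.

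For the 3 members called in at least 1 comparison, the genes with the most similar profile over the 15 libraries were found by the root mean square difference of log2 CPM, each profile centred on its own mean, among 11763 genes. For Cacna2d1 these were Camk1 (0.116), Bach1 (0.127), Pigf (0.136), Hsd17b7 (0.163) and Cbln2 (0.163), where the profile of Cacna2d1 itself had an SD of 0.472. For Cacna2d2 they included Ppm1f (0.190), Mob3a (0.227), Lrrc3 (0.253) and Chst10 (0.263), against an SD of 0.582. For Cacnb1 they included Capn5 (0.118), Sh2d3c (0.120), Ptprn2 (0.128) and Slc29a4 (0.132), against an SD of 0.414. The libraries share groups, so these distances describe a likeness of pattern and carry no p.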

How the data were processed

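The deposited table holds raw read counts per gene, from Trizol RNA and TruSeq Stranded mRNA libraries, per the labels' protocols. Per the submitters' processing notes, HTSeq 0.6.1 and TopHat2 2.0.4 were among the tools, as were DESeq2, Cufflinks and SAMtools, and the build was GRCm38. Neither annotation release nor strand setting is given in the sources used here, so reads of overlapping genes may be shared. Symbols, exons and 3′ UTRs came from GENCODE M21, which named 37693 identifiers.

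Of 27310 genes with a count, 16976 passed edgeR's filterByExpr (minimum count 10) and were tested. The others hold 0.131% of the counts. edgeR 4.0.16 (R 4.3.3) fitted 4 group means to 15 libraries (TMM, robust quasi-likelihood, 11 residual degrees of freedom, common biological variation 15.3%). Tests were two-sided. The 95% intervals rest on the SE of the fit. Levels are CPM scaled by TMM, and log2 CPM used a prior count of 2. In a single library 3 counts equal 0.273 to 0.647 CPM. The labels name 1 animal per library.

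Alternatives used DESeq2 size factors, no filter, DESeq2 1.42.0, limma-voom (limma 3.58.1), fewer groups, Wnt1-Cre controls only and each library left out. The scripts were tested on simulated counts. Figures and summaries used Python 3.11.15, pandas 2.3.3 and matplotlib 3.10.9.

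The members, the gene lists and the tests were chosen with earlier results of these data known. Besides the members, the genes named are the called members of each pathway list, or otherwise those with the smallest p, the 5 most similar profiles of at least 5 CPM per called member, and Slc25a1, Atf3 and Sprr1a as checks. Some genes that this rule gives are not reported here.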

Additional observations from a re-analysis of the deposited data

Results flagged for a closer look

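Among the 14 groups of 4 or 5 libraries examined (7 genes in the naive groups), 4 held a library whose gap to the others exceeded Dixon's 95% critical value, and chance gives about 1 in 20 groups. Knockout naive replicate 9 had the lowest Cacna2d1 of its group, 267 CPM, where the other knockout naive libraries had 318 to 324 CPM. The same library had the highest Cacnb3, 281 CPM, where the others had 233 to 238 CPM. Knockout naive replicate 8 had 7.59 CPM of Cacnb2, where the others had 6.00 to 6.19 CPM. Control naive replicate 7, the wild-type library, had 55.8 CPM of Cacna2d3, where the Wnt1-Cre controls had 63.0 to 64.2 CPM.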

How the results depend on the processing

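Some of the members' calls, and the counts over all genes, depended on the fit. The calls of Cacna2d1 for injury and of Cacna2d2 in naive mice held in every fit. Those of Cacna2d2 after injury and of Cacnb1 in both conditions were lost in some fits. Some results of Cacnb1, Cacnb3 and Cacnb4 that the main fit did not call were called in others. In knockout against control, naive, 321 genes were called, and 501 by DESeq2, 1016 with only the groups compared and 709 with Wnt1-Cre controls only. After injury 177 were called, and 942, 0 and 74 under the same settings, with 1219 at an unadjusted p under 0.05 in the edgeR fit that called 0. That fit without control SNI replicate 23 called 12. The higher share was 63.8% in the main fit after injury, 47.6% by DESeq2 and 72.3% by limma-voom. For SNI against naive, 1717 were called in knockout, and 4434 with only the groups compared and 4746 with Wnt1-Cre controls only. In control 421 were called, and 661, 213 and 259 by DESeq2, only the groups compared and Wnt1-Cre controls only. For the difference between injury effects 0 were called, and 1 without the filter, 13 by DESeq2 and 1 with Wnt1-Cre controls only. Leaving out 1 library gave 151 to 707, 57 to 3560, 587 to 4409, 283 to 1506 and 0 to 1235 in the 5 comparisons. The ends were knockout naive replicate 9 and control SNI replicate 23, knockout SNI replicate 19 and control SNI replicate 15, knockout SNI replicate 19 and control SNI replicate 23, control SNI replicates 18 and 15, and, for 1235, control SNI replicate 15. The cause was not tested.

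Cacna2d2 after injury was 1.14 (adjusted p = 0.391) with only the groups compared and 0.95 (adjusted p = 0.0816) when control SNI replicate 23 was left out as well. Cacnb1 after injury was 0.87 (adjusted p = 0.422) and 0.71 (adjusted p = 0.0833) in the same fits, and 0.62 (adjusted p = 0.0893) with Wnt1-Cre controls only. Leaving out 1 library gave Cacna2d2 0.99 to 1.08 in naive mice and 0.95 to 1.30 after injury, and Cacnb1 0.55 to 0.67 and 0.71 to 1.01. For Cacna2d1, SNI against naive, it gave 0.91 to 1.02 in knockout and 0.86 to 0.92 in control.

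Values that changed sign were not called. With Wnt1-Cre controls only these were Cacnb3 after injury (-0.063), Cacna2d2, Cacna2d3 and Cacnb2 in SNI against naive control (0.042, 0.0781 and 0.0674), and the difference between injury effects for Cacna2d2, Cacna2d3 and Cacnb3 (-0.16, -0.0746 and -0.13). Cacna2d3 in SNI against naive knockout was 0.0042 with DESeq2 size factors, 0.0055 by DESeq2, 0.0031 with only the groups compared and 0.0035 with Wnt1-Cre controls only. Leaving out 1 library turned Cacna2d3 in SNI against naive knockout (-0.0765 to 0.0772) and in knockout against control after injury (-0.17 to 0.089). It also turned Cacnb1, Cacnb3 and Cacnb4 in SNI against naive control (-0.11 to 0.20, -0.15 to 0.13 and -0.0827 to 0.0237) and the difference between injury effects for Cacna2d2 (-0.0849 to 0.26). Cacnb4 and Cacnb1 in SNI against naive knockout were called with only the groups compared (adjusted p = 0.0412 and 0.021) and with Wnt1-Cre controls only (adjusted p = 0.0261 and 0.0238). Of 35 results for single members, 35 were on the same side of the threshold and of 0 under limma-voom and 35 without the filter. No paired analysis was possible, because each library came from a different mouse and the labels name no pairs.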

Other observations

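Sprr1a, an injury gene used as a check, averaged 342 ± 96.8 CPM in knockout SNI, 194 ± 20.2 CPM in control SNI, 0.847 ± 0.379 CPM in knockout naive and 0.807 ± 0.417 CPM in control naive ganglia. Its knockout libraries (237 to 427 CPM) and control libraries (182 to 217 CPM) did not overlap after injury, which was so for 16.2% of all tested genes. The log2 fold change between them was 0.82 and was not called (adjusted p = 0.0676, edgeR).

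Of the spinal cord genes, Slc5a7, the choline transporter, was called higher in knockout naive ganglia (log2 fold change 0.76, adjusted p = 0.0355, edgeR). There 0.889% of all tested genes were called higher. Slc5a7 was the 1 gene above 0 of the 4 tested in the list, whose median was -0.16. Olig2 was at 0 in every naive library. The list summed to 111 to 129 CPM in knockout naive and 127 to 167 CPM in control naive libraries. Macrophage genes were called between genotypes in neither condition, where 1.04% (SNI) and 1.89% (naive) of all tested genes were. Their median log2 fold change was -0.08 after injury and 0.40 in naive mice.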
